A study of Mus musculus with 6 samples.

Results

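Histones are the proteins around which DNA is wound, and their genes fall into a replication-dependent set and a variant set. In the deposited count table, a histone gene was taken as a protein-coding gene whose symbol starts with Hist1h to Hist4h, H2af, H3f3 or H1f. This gave 82 of the 54532 genes listed: 67 replication-dependent genes (Hist1h to Hist4h) and 15 variant genes (H2af, H3f3 and H1f). The symbols are those of the table, and no expression value was used to choose them. RNA-seq was done in bulk on 6 libraries of cells cultured from mouse aortas, 3 from female and 3 from male mice, all with an endothelial-specific knockout of Oct4, a pluripotency transcription factor. All 6 cultures were untreated and were kept in F-12 medium with serum, heparin and endothelial growth factors. The labels give neither the promoter driving the deletion nor the age of the mice, and do not say if libraries of the same sex had separate mice or cultures as their source. P-values therefore measure the spread between these libraries, which may be technical. Wild-type cells were not analysed here, so every comparison is female knockout against male knockout.

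The libraries held 19299742 to 23064738 counts, and CPM are counts scaled to a library of 1000000 after adjustment of the library sizes. A floor of 3 counts corresponded to 0.123 to 0.154 CPM. Pou5f1, the gene of Oct4, had 0 counts in all 6 libraries. Of 10 endothelial markers, 8 did not pass the filter on low counts, Emcn and Cldn5 had 0 counts in every library, and the list summed to 88.9 to 105.2 CPM in female and 228.5 to 290.1 CPM in male libraries, nearly all of it Eng. The 6 fibroblast markers summed to 10840 to 12140 CPM in female and 3757 to 4108 CPM in male libraries. Between the sexes 4 of the 6 were higher in female cells, 1 was lower and Col1a1 was not called. Among all genes tested, 30.9% were called higher and 29.8% lower. The 6 markers had a median log2 fold change of 2.14. The endothelial label therefore goes against most of its defining markers. The cells are called Oct4 KO cells here.

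The replication-dependent genes supply the bulk of histone protein in S phase, when new DNA must be packaged. They sit in clusters, mostly lack introns, and their mRNA ordinarily ends in a conserved stem-loop, bound by the protein SLBP, in place of a poly(A) tail. Variant histones such as H3.3, H2A.Z, macroH2A and H1.0 are made throughout the cell cycle from polyadenylated mRNA and replace the replication-dependent forms at particular places in chromatin. The libraries here were selected on poly(T) beads, so a histone mRNA without a tail is not captured in proportion to its amount. Levels of replication-dependent genes below are levels in poly(A)-selected RNA.

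The stem-loop is the sequence on which this difference rests, so it was searched in the annotated 3′ ends (GENCODE M21 transcripts, GRCm38, the build of the files). A match to the 16-base histone stem-loop pattern was found in 46 of the 67 replication-dependent genes (68.7%), in 1 of the 15 variant genes (6.67%) and in 15 of 21819 other protein-coding genes (0.0687%). The loops of 6 genes are printed below, 5′ to 3′ on the gene's strand, with the 16 matched bases in capitals and 5 bases on either side.
Hist1h1c: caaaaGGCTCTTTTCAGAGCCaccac
Hist3h2a: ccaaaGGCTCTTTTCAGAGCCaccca
Hist1h2ab: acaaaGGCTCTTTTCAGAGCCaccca
Hist1h4h: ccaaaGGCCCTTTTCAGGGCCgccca
Hist1h4i: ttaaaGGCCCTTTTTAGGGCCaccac
H2afx: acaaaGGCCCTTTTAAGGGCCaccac
The capitals lie at chr13:23739512-23739527 (plus strand) for Hist1h1c, chr11:58955172-58955187 (plus) for Hist3h2a, chr13:23751572-23751587 (plus) for Hist1h2ab, chr13:23531458-23531473 (plus) for Hist1h4h, chr13:22040966-22040981 (minus) for Hist1h4i and chr9:44335240-44335255 (plus) for H2afx. The 46 replication-dependent genes held 8 different loop sequences, and 26 of them shared the one printed for Hist1h1c. Counted from the last coding base before the stop codon, the loop began 24 to 61 bases on, with a median of 34. Most replication-dependent genes without a match are annotated to end at or just after the stop codon, too soon for a loop. In Hist1h1b and Hist1h2ah 3 and 5 bases follow the coding sequence, the stop codon among them. A missing match there does not show that the gene lacks a loop. H2afx, whose product H2A.X is phosphorylated at DNA breaks, was the variant gene with a loop. Hist1h1c, Hist3h2a, Hist1h4i and H2afx have 840, 1643, 330 and 822 annotated transcript bases after the loop, and Hist1h2ab and Hist1h4h have 11 and 46. A poly(A) signal (AATAAA or ATTAAA, searched in the last 50 transcript bases on the gene's own strand) was found in 17 replication-dependent genes (25.4%), in 10 variant genes (66.7%) and in 17031 other protein-coding genes (78.1%). Short annotated ends limit this search too.

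Most replication-dependent genes had few counts or none. Counts fell on 45 of the 67 in at least 1 library and on 11 in all 6 libraries, and 22 (32.8%) had 0 counts throughout, against 52.8% of all genes in the table. Of the 15 variant genes, 11 had counts and 10 had counts in all 6 libraries. The filter on low counts left 8 replication-dependent genes (11.9%) and 10 variant genes (66.7%) to be tested, against 27.2% of all genes, so the fold changes below describe 18 of the 82 histone genes. The shares over all genes include genes that are not protein-coding and are no like comparison for these protein-coding genes. Among protein-coding genes alone 12661 passed the filter, and the annotation holds 21819 of them besides the histone genes. Variant genes without counts were the testis variants H1fnt, H2afb1, H2afb2 and H2afb3, and H1foo, the oocyte linker histone, had 2 counts in 1 female library. None of 5 germ cell markers passed the filter.

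Replication-dependent genes together gave 89.9, 113.5 and 101.7 CPM in female cells, and 105.3, 104.9 and 101.7 CPM in male cells. The female libraries spread around the male ones, and the means of 101.7 ± 11.8 CPM in female and 104.0 ± 1.97 CPM in male cells (SD, n = 3 each) differed by less than the female spread. Their share of all histone counts was 7.23%, 9.25% and 7.56% in female cells (95% exact binomial intervals 6.92 to 7.56, 8.89 to 9.63 and 7.24 to 7.88, counting error only). In male cells it was 8.87%, 8.60% and 8.06% (8.52 to 9.23, 8.25 to 8.96 and 7.75 to 8.37). The shares of the sexes overlapped, at 8.01% ± 1.09 in female and 8.51% ± 0.415 in male cells. Variant genes made up the rest, with 1154, 1113 and 1244 CPM in female cells and 1081, 1116 and 1161 CPM in male cells, which also overlapped. All histone genes together took 0.116% to 0.130% of counts in female and 0.123% to 0.133% in male libraries. In bulk samples fewer cells of a type and less RNA per cell cannot be told apart.

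**Figure D1:**
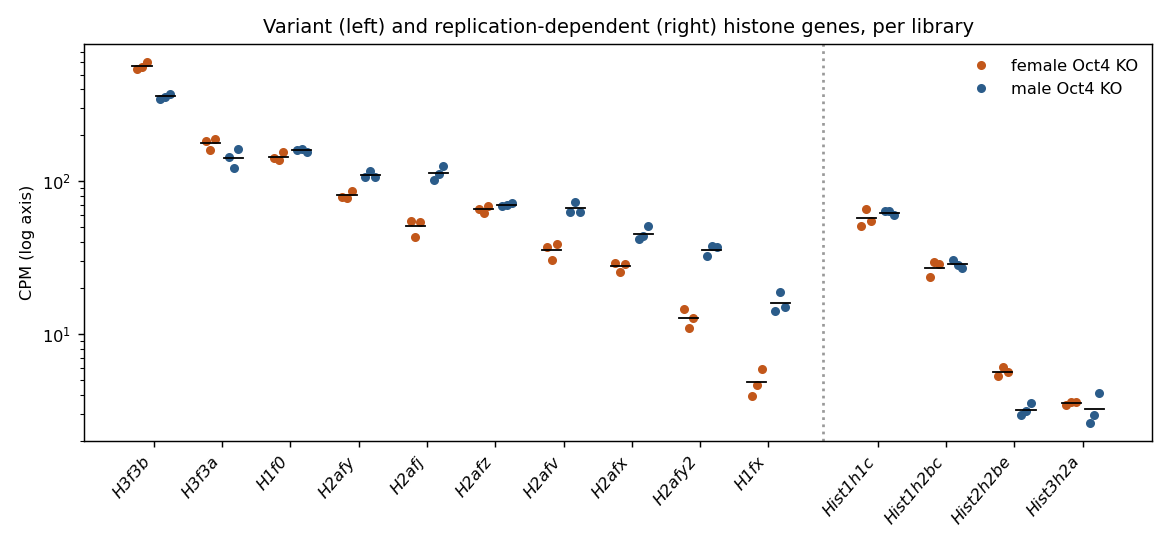
CPM per library (log axis) of the named variant genes at the left and the replication-dependent genes at the right, with female libraries left of male ones for each gene. H3f3b was the highest in every library, and the replication-dependent genes Hist1h1c and Hist1h2bc lay among the variants at 57.5 and 27.3 CPM in female and 62.4 and 28.7 CPM in male cells.

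A few genes carried nearly all replication-dependent counts. Hist1h1c, Hist1h2bc, Hist2h2be and Hist3h2a held 92.6%, 92.9% and 91.8% of them in female libraries and 94.9%, 93.5% and 92.9% in male libraries. Hist1h1c alone held 56.5%, 58.4% and 54.4% in female and 60.4%, 60.6% and 58.8% in male libraries. The other 63 genes together gave 7.67 ± 0.93 CPM in female and 6.49 ± 0.99 CPM in male cells, with a median of 4 counts a gene over all 6 libraries. By protein, the 6 H1 genes summed to 58.3 ± 7.93 CPM in female and 62.6 ± 2.31 CPM in male cells, and the 18 H2B genes to 34.8 ± 2.84 and 33.7 ± 1.93 CPM in female and male cells. The 18 H2A genes summed to 4.42 ± 0.84 CPM in female and 3.69 ± 0.87 CPM in male cells. The 12 H3 genes gave 1.63 ± 0.63 and 1.07 ± 0.67 CPM, and the 13 H4 genes 2.63 ± 0.55 and 2.91 ± 0.85 CPM, in female and male cells. By group means the 4 core histones, which form the nucleosome in equal parts, differed widely in poly(A)-selected RNA, and H3 and H4 were lowest. In 1 male library H4 lay above H2A.

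Counts moved with the annotated 3′ end. In 23 genes the loop lay within 100 bases of the annotated transcript end, as in Hist1h2ab and Hist1h4h. These had a median of 3 counts, a highest total of 65 (Hist1h4h) and 164 counts altogether, or 1.36 ± 0.48 CPM in female and 1.25 ± 0.28 CPM in male cells. Another 23 genes have over 100 annotated bases after the loop, as Hist1h1c and Hist3h2a do. They had a median of 17 counts and 8596 altogether, or 66.8 ± 8.30 CPM in female and 70.6 ± 1.47 CPM in male cells. Hist1h1c held 7496 of these counts. In 21 genes, most of them annotated to end at or just after the stop codon, no loop matched the pattern. They held 4097 counts, of which 3500 fell on Hist1h2bc, which is annotated with a spliced transcript, and 551 on Hist2h2be, whose transcript carries a poly(A) signal. Longer transcripts also collect more reads: the median gene length was 485 bases in the first group and 1249 bases in the second. The groups also differed in shared sequence: the median percentage of 50-base windows found in no other gene was 39.58% in the first and 75.45% in the second. The parts of length and of shared sequence in these counts were not tested.

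**Figure D2:**
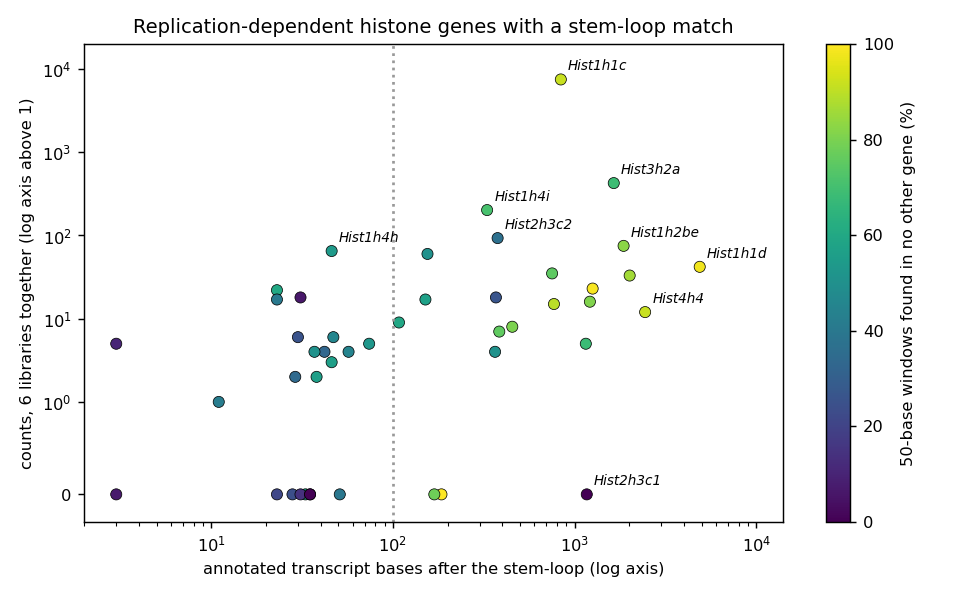
Counts summed over the 6 libraries (log axis above 1) of the 46 replication-dependent genes with a stem-loop, against the annotated transcript bases after the loop (log axis), coloured by the percentage of 50-base windows found in no other gene. Genes with a loop within 100 bases of the end lie at 65 counts or fewer, and Hist1h1c stands highest at 7496.

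Many of these genes have near-identical copies or overlapping annotation. In the replication-dependent genes a median of 46.0% of 50-base windows occurred in no other gene's GENCODE transcript, on either strand, against 91.6% in the variant genes. The 34 genes under 50% unique held 207 counts altogether and 17 of them were at 0. The 33 genes at 50% or more held 12650 counts and 5 were at 0. All 18 replication-dependent H2A genes overlap another annotated gene on the opposite strand. How the authors' counting treated reads with several matches, and whether it used strand, is given nowhere in the sources used here. A count of 0 in a gene with close copies is thus uncertain. The same limit touches genes with counts. In Hist1h2bc 69.4% of the windows were found in no other gene, and the rest were shared with transcripts of 220 genes. The median gene length was 468 bases in the 34 genes and 774 bases in the 33, and the part of each of these properties in the counts was not tested. Hist2h2aa1, Hist2h2aa2, Hist2h2bb, Hist2h3b, Hist2h3c1 and Hist1h2bq had no window of their own.

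RNAs that ordinarily lack a poly(A) tail were also present at low levels, and some classes took a larger share of female libraries. Nuclear rRNA took 0.0810%, 0.0583% and 0.0869% of counts in female libraries and 0.0417%, 0.0362% and 0.0525% in male libraries. Small nuclear RNA took 0.00179% ± 0.000386 in female and 0.000949% ± 0.000186 in male libraries (SD, n = 3 each). The groups did not overlap in either share. Small nucleolar RNA overlapped, at 0.00417% ± 0.000451 in female and 0.00377% ± 0.000277 in male libraries, as did the small Cajal body RNAs, and Rmrp, Rpph1, Rnu11 and Rnu12 had 0 counts in every library. The part of this carry-over in the replication-dependent counts was not tested.

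Between the sexes, 9 of the 18 tested histone genes were called at an adjusted p under 0.05 (edgeR quasi-likelihood test, Benjamini-Hochberg adjustment over 14814 genes). Over all genes tested the share called was 60.7%, with 30.9% higher and 29.8% lower in female cells, and the median log2 fold change (female over male) was −0.01. Among the replication-dependent genes 1 of 8 was higher in female cells, 0 were lower and 7 remained uncalled (median −0.09). At an unadjusted p under 0.05, 0 replication-dependent genes were lower by edgeR with TMM scaling and the low-count filter and 0 of the 23 that DESeq2 tested. There was 1 by limma-voom, 1 by edgeR with total counts and 1 by edgeR with no low-count filter. Without female replicate 1 Hist1h2be was called lower (−2.81, adjusted p = 0.0236 by edgeR), and without female replicate 2 Hist1h1c was (−0.23, adjusted p = 0.0446 by edgeR). Of the 10 variants tested, female cells had 2 called higher and 6 called lower, and the median was −0.57. The values of the sexes did not overlap in 1 of 8 replication-dependent and 8 of 10 variant genes, against 67.1% of all genes tested. The fibroblast and endothelial marker sums above differed between the same libraries. Of 4 smooth muscle markers 2 were tested, and 1 was lower in female cells. Of 4 leukocyte markers 3 were tested, with 1 higher and 1 lower in female cells. The part of these marker differences in the histone fold changes was not tested.

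**Figure D3:**
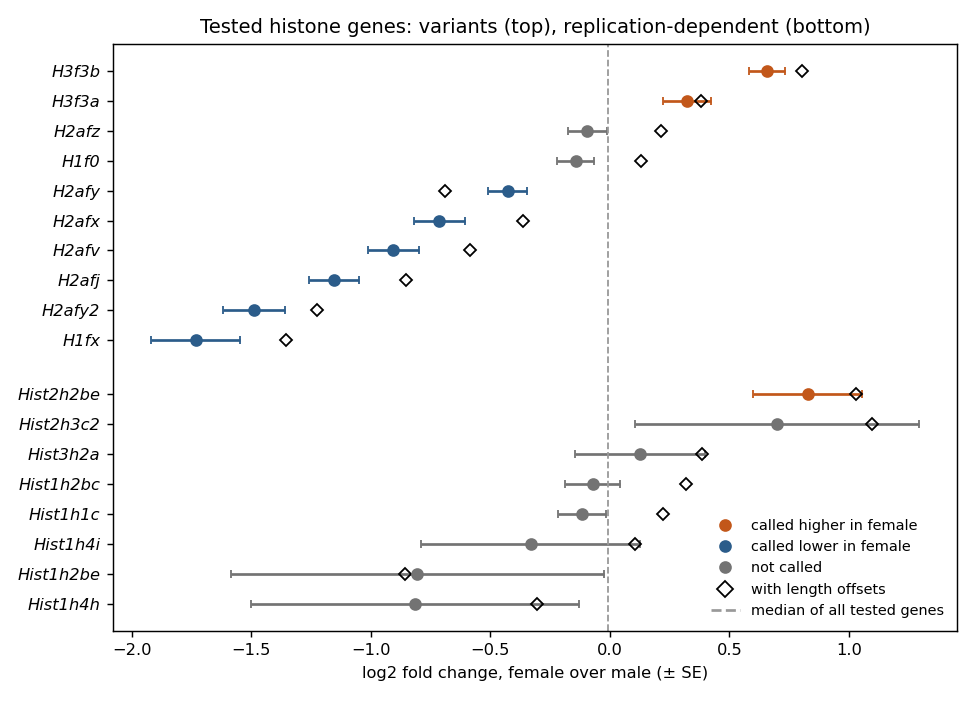
Log2 fold change, female over male, with its SE for the 18 tested histone genes, variants at the top and replication-dependent genes at the bottom. H3f3b, H3f3a and Hist2h2be were called higher in female cells, and 6 variants from H2afy at −0.43 to H1fx at −1.73 were called lower.

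Hist1h1c (chr13:23738808-23740367), which encodes the linker histone H1.2, had 50.8, 66.3 and 55.3 CPM in female cells and 63.6, 63.6 and 59.8 CPM in male cells. The groups overlapped: 1 female library lay above all male ones and the other 2 below them. Its log2 fold change was −0.12 ± 0.10 (SE, adjusted p = 0.322 by edgeR), and under other processing it ran from −0.24 to 0.22. Hist1h2bc (chr13:23684199-23692908), which encodes a core histone H2B, had 23.8, 29.5 and 28.7 CPM in female cells and 30.8, 28.3 and 27.0 CPM in male cells, with overlap and a log2 fold change of −0.07 ± 0.12 (adjusted p = 0.612 by edgeR). With offsets that level the trend with gene length, Hist1h2bc turned to 0.32 and was called (adjusted p = 0.0249 by edgeR). Hist2h2be (chr3:96221119-96223738), another H2B gene, was the replication-dependent gene called. It had 110, 119 and 112 counts in female and 62, 62 and 86 counts in male libraries, or 5.70 ± 0.392 CPM in female and 3.20 ± 0.305 CPM in male cells. The groups did not overlap, and the log2 fold change was 0.83 ± 0.23 (adjusted p = 0.00472 by edgeR). Hist3h2a, an H2A gene that overlaps Trim17 on the same strand, had 3.54 ± 0.0944 CPM in female and 3.23 ± 0.784 CPM in male cells and was not called (0.13 ± 0.27).

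The remaining tested genes rested on few counts. Hist1h4i had 20, 23 and 42 counts in female and 19, 48 and 50 in male libraries, and Hist1h4h had 1, 15 and 6 in female and 13, 12 and 18 in male libraries. Both encode H4, and neither was called. Hist2h3c2, an H3 gene, had 10, 22 and 23 counts in female and 6, 7 and 25 in male libraries, and Hist1h2be had 22, 4 and 0 in female and 12, 18 and 19 in male libraries. In each of these 4 the groups overlapped, and the log2 fold changes had SEs of 0.46 to 0.78. Among the genes not tested, Hist2h4 had 16, 3 and 4 counts in female libraries and 0 in all male ones, at least 2.78-fold higher in female cells against a floor of 3 counts a library. Most of these counts came from female replicate 1, without which the bound was 1.29-fold. Hist4h4 had 0 counts in all female libraries and 5, 3 and 4 in male ones, at least 1.23-fold lower in female cells against that floor. Hist1h2bb had 10, 7 and 4 counts in female and 0, 0 and 1 in male libraries. With no filter on low counts, Hist2h4 and Hist1h2bb were called higher in female cells, which makes 3 replication-dependent genes called among 45 tested. Hist2h4, Hist4h4 and Hist1h2bb were chosen for mention after their values were seen.

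The start of Hist1h2bc faces that of Hist1h2ac, an H2A gene read from the other strand, 251 bases away, and 12 such pairs of replication-dependent genes start within 500 bases of each other. Over all libraries Hist1h2bc had 3500 counts and Hist1h2ac 33. Across the same arrangement, Hist2h2be had 551 counts and Hist2h2ac 4, with 239 bases between their starts. The RefSeq promoter window of Hist1h2ac (250 bases before to 50 after its start, minus strand, GRCm38.p6, chr13:23683910-23684209) spans the gap to the Hist1h2bc start. It is shown because this one stretch lies before both genes. The capitals mark CCAAT and TATAAA on either strand, so ATTGG is CCAAT on the other strand.
Hist1h2ac: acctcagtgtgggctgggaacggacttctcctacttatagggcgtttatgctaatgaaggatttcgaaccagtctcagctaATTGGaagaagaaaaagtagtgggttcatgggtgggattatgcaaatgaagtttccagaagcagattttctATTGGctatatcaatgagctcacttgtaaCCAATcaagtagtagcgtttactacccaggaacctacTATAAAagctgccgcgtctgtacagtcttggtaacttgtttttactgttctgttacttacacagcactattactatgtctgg
Hist1h1c: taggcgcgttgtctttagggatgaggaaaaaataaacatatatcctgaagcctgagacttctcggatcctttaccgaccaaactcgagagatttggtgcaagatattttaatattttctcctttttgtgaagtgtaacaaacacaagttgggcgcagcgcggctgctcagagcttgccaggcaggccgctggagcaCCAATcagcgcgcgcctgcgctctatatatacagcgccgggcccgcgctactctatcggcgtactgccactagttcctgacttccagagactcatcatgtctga
The window of Hist1h1c (plus strand, chr13:23738557-23738856) held 1 CCAAT and no TATAAA. RefSeq windows matched 62 replication-dependent and 14 variant genes. CCAAT, on either strand, was in 53 of the 62 (85.5%), in 10 of the 14 (71.4%) and in 37.4% of all 32851 windows of that length. TATAAA, on either strand, was in 35 of the 62 (56.5%), in 1 of the 14 (7.1%, H3f3b) and in 13.6% of all windows. Some windows lie away from the start given in the count table, by 3458 bases for H3f3b. Windows of a facing pair can share bases, so the same match can count for both genes and raise these shares. A match is a description of the letters and not a site of binding.

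H3f3b, which encodes H3.3, the H3 variant laid down outside replication, had the highest CPM of the histone genes in this poly(A)-selected RNA. Protein was not measured, and replication-dependent mRNA without a tail is not ranked by these values. H3f3b (chr11:116021912-116027962) had 540.1, 558.0 and 603.4 CPM in female cells and 348.1, 358.3 and 371.3 CPM in male cells. All female libraries lay above all male ones, and the log2 fold change was 0.66 ± 0.08 (SE, adjusted p = 1.02e-06 by edgeR), or 1.58-fold. H3f3b alone took 43.4%, 45.5% and 44.8% of all histone counts in female and 29.3%, 29.4% and 29.4% in male libraries. H3f3a (chr1:180800832-180813943), which encodes the same protein, had 184.9, 161.5 and 188.9 CPM in female cells and 143.5, 121.8 and 162.2 CPM in male cells. In H3f3a 1 male library lay within the female range, and the log2 fold change was 0.32 ± 0.10 (adjusted p = 0.00976 by edgeR). Without male replicate 2 it was 0.21 (adjusted p = 0.0731), and with total counts as the scale 0.21 (adjusted p = 0.0997). H3f3a overlaps the antisense gene H3f3aos, and without a stated strand setting reads of the overlap cannot be told apart. Per kilobase of gene length, H3f3b stood at 190.6 ± 11.0 RPKM in female and 120.7 ± 3.91 RPKM in male cells, and H3f3a at 50.9 ± 4.23 RPKM in female and 40.7 ± 5.77 RPKM in male cells.

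The H2A variants were lower in female cells in 5 of the 6 genes read, beside 29.8% of all genes tested. Together the 6 gave 274.5 ± 20.8 CPM in female and 441.3 ± 22.9 CPM in male cells. H2afj (chr6:136808244-136810074) encodes H2A.J, a mammalian variant known to accumulate in senescent human fibroblasts. It had 55.0, 43.4 and 54.4 CPM in female cells and 101.8, 112.0 and 126.0 CPM in male cells, with no overlap, and fell by 1.15 ± 0.10 on the log2 scale (adjusted p = 6.18e-08 by edgeR). H2afx (chr9:44334694-44336077) had 29.1, 25.5 and 28.7 CPM in female cells and 42.1, 43.7 and 50.9 CPM in male cells. All its female libraries lay below all male ones, and the log2 fold change was −0.71 ± 0.11 (adjusted p = 2.00e-05 by edgeR). In H2afj and H2afx the level per kilobase was 27.8 and 20.1 RPKM in female and 61.9 and 32.9 RPKM in male cells. Each of these genes overlaps another annotated gene, and how reads of the overlap were counted is not known. Because H2afx holds a stem-loop, its values too are levels in poly(A)-selected RNA.

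MacroH2A carries a large extra domain beside its histone part and is known from repressed chromatin, including the inactive X chromosome. H2afy (chr13:56073619-56136361), which encodes macroH2A1, had 79.4, 78.3 and 86.8 CPM in female cells and 106.0, 116.2 and 106.7 CPM in male cells. H2afy2 (chr10:61738665-61784147), which encodes macroH2A2, had 14.6, 11.0 and 12.7 CPM in female cells and 32.3, 37.8 and 37.4 CPM in male cells. Neither gene overlapped between the sexes. The log2 fold changes were −0.43 ± 0.08 for H2afy (adjusted p = 0.000242) and −1.49 ± 0.13 for H2afy2 (adjusted p = 3.90e-08), both by edgeR. H2afy2 overlaps Aifm2 on the opposite strand, which the same limit on strand touches. H2afy overlaps another annotated gene as well.

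H2A.Z, found beside active promoters and enhancers, is encoded by H2afz and H2afv. H2afz (chr3:137864487-137866922) had 66.2, 62.2 and 69.5 CPM in female cells and 69.3, 69.7 and 72.2 CPM in male cells, overlapped and was not called (log2 fold change −0.09 ± 0.08, adjusted p = 0.338 by edgeR). Its sign depended on the processing: with the length offsets it was 0.21 and called (adjusted p = 0.0206 by edgeR). H2afv (chr11:6427229-6444443) had 37.4, 30.5 and 38.7 CPM in female cells and 63.4, 73.5 and 63.1 CPM in male cells. Its groups did not overlap, and the log2 fold change was −0.91 ± 0.11 (adjusted p = 1.28e-06 by edgeR). Only 36.2% of the 50-base windows of H2afz occurred in no other gene, against 100% for H2afv.

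The variant linker histones bind between nucleosomes. H1f0 and H1fx each overlap another annotated gene, and how reads of the overlap were counted is not known. H1f0 (chr15:79028450-79030504), encoding H1.0, which is known from differentiated and non-dividing cells, had 142.9, 137.5 and 154.7 CPM in female cells and 160.7, 163.8 and 155.8 CPM in male cells. Each female library lay below each male one, but the gene was not called (log2 fold change −0.14 ± 0.08, adjusted p = 0.124 by edgeR). Under upper quartile scaling H1f0 was called at −0.22 (adjusted p = 0.0226) and under total counts at −0.26 (adjusted p = 0.00889), both by edgeR. Over all 14 alternatives its log2 fold change ran from −0.26 to 0.13, so its sign depended on the processing. H1fx (chr6:87980421-87981637), encoding H1.X, had 3.96, 4.66 and 5.88 CPM in female cells and 14.2, 19.0 and 15.1 CPM in male cells. It had the largest fold change of the histone genes called, at −1.73 ± 0.19 (adjusted p = 4.76e-07 by edgeR), or 3.32-fold lower in female cells.

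**Figure D4:**
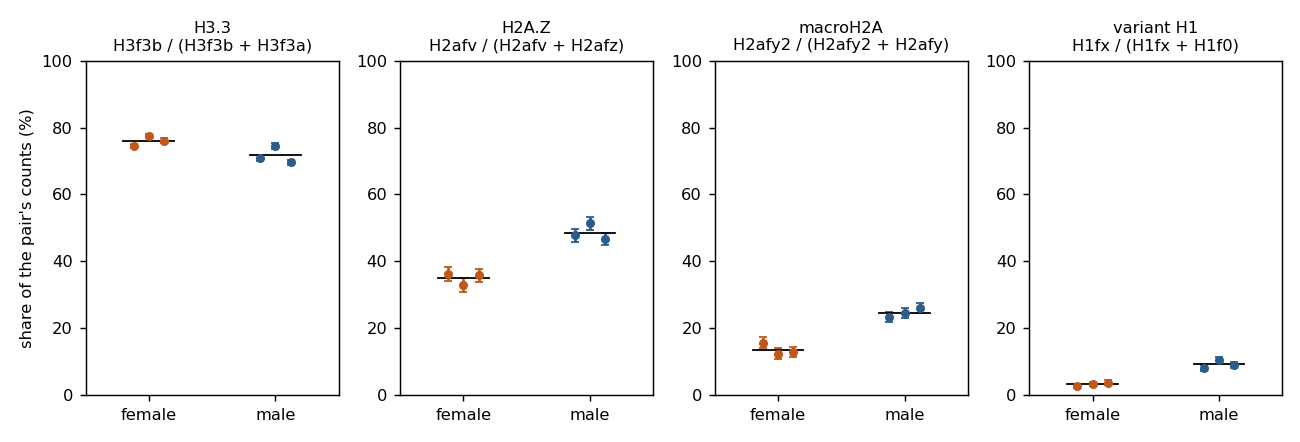
Share of one gene in the summed counts of a pair, in percent, per library with female left of male: H3f3b of the H3.3 pair, H2afv of the H2A.Z pair, H2afy2 of the macroH2A pair and H1fx of H1fx and H1f0. The shares of H2afv, H2afy2 and H1fx lie below the male ones in every female library, and those of H3f3b overlap.

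Within a library, shares of a pair do not depend on the scaling between libraries. They can still carry the trend with gene length where the genes of a pair differ in length. H2afy has 6809 bases and H2afy2 2175, and with the length offsets their log2 fold changes were −0.69 and −1.23. H2afv gave 36.1%, 32.9% and 35.8% of H2A.Z counts in female libraries and 47.8%, 51.3% and 46.6% in male libraries. H2afy2 gave 15.5%, 12.3% and 12.7% of macroH2A counts in female libraries and 23.4%, 24.5% and 26.0% in male libraries. The groups did not overlap in either pair. H1fx gave 3.21% ± 0.48 of the counts of H1fx and H1f0 in female and 9.11% ± 1.16 in male libraries, again without overlap. H3f3b gave 76.1% ± 1.53 of H3.3 counts in female and 71.7% ± 2.63 in male libraries, and those shares overlapped. Hist1h1c gave 28.4% ± 3.60 of the counts of Hist1h1c and H1f0 in female and 28.0% ± 0.30 in male libraries. These shares are given as descriptions, without a test.

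Fold change moved with gene length over the whole table. Tested genes of 57 to 2005 bases, among them 10 of the 18 tested histone genes, had a median log2 fold change of −0.34, and those of 7105 bases or more, with 0 histone genes, 0.37. With offsets that level this trend, the 6 lower variants, H3f3b and Hist2h2be kept their call and direction, H2afx at −0.36 and H2afy at −0.69.

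The genes that process and carry histones were read beside them. Of 21 tested genes of histone mRNA processing, 6 were higher in female cells, 6 lower and 9 not called (median −0.15), shares near the 30.9% higher and 29.8% lower over all genes. Slbp, which binds the stem-loop, had 34.9 ± 0.877 CPM in female and 36.2 ± 1.90 CPM in male cells and was not called (adjusted p = 0.666 by edgeR). Npat, the activator of replication-dependent histone transcription, was higher in female cells, at 41.9 ± 5.32 CPM against 27.5 ± 2.78 CPM in male cells. Lsm11, a part of the U7 particle that cuts histone pre-mRNA, was higher as well (log2 fold change 1.20 ± 0.15, adjusted p = 1.93e-06 by edgeR), and so was Tut7, which adds uridines to histone mRNA during its decay (0.95 ± 0.09). Cpsf2, a subunit of the cleavage complex, was also higher (0.54 ± 0.09), and Cstf1, a cleavage stimulation factor, was lower (−0.59 ± 0.10).

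Chaperones that bring new histones to replicating DNA were mostly lower in female cells, 10 of 12 tested with 0 higher and a median of −0.75, beside 29.8% lower and a median of −0.01 over all genes. Chaf1b, a subunit of the CAF-1 complex that deposits H3 and H4, had 3.90 ± 0.183 CPM in female and 11.9 ± 2.01 CPM in male cells (log2 fold change −1.60 ± 0.19, adjusted p = 1.64e-06 by edgeR). Ipo4, which imports H3 and H4, fell by 0.88, Hat1, which acetylates new H4, by 0.75, and Mcm2, a helicase subunit that also binds H3 and H4, by 1.09. Of 34 DNA replication genes, which include Mcm2 and Slbp, 28 were lower, 2 higher and 4 not called (median −0.91), with Mcm3 at −1.89, Mcm5 at −2.10, Mcm6 at −1.69 and Mcm7 at −1.21. Beside them 0 of the 8 tested replication-dependent histone genes were called lower, with the exceptions under other settings given above and Hist1h1c at −0.24 with total counts as the scale.

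Of 14 replication-independent chaperones, which serve the variants, 6 were higher in female cells, 4 lower and 4 not called (median 0.11), beside 30.9% higher and 29.8% lower over all genes. Atrx, which deposits H3.3 at repeats with Daxx, had 166.1 ± 16.7 CPM in female and 83.3 ± 11.2 CPM in male cells, and Ep400 and Ino80, remodellers that exchange H2A.Z, were higher by 0.68 and 0.60 on the log2 scale. With the length offsets Ep400 stood at 0.17 and was not called (adjusted p = 0.0819 by edgeR). Hjurp, which carries the centromeric H3 variant, was lower (−0.66). Hira and Daxx, H3.3 chaperones named after their values were seen, were lower at −0.78 and −0.43, while Atrx was higher. Of 7 tested genes in a list of FACT, NAP and other histone chaperones, 2 were higher and 4 lower, beside the same shares over all genes. Nap1l1, a chaperone of H2A and H2B, had 263.2 ± 25.5 CPM in female and 609.5 ± 21.1 CPM in male cells (log2 fold change −1.21 ± 0.08, adjusted p = 1.60e-09 by edgeR), Ncl and Ssrp1 were lower at −0.71 and −0.59, and Supt16, the partner of Ssrp1 in FACT, was higher at 0.39.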

How the data were processed

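The deposited table holds raw counts per gene for 6 poly(A)-selected bulk RNA-seq libraries, unnormalized, with symbol, position, length and biotype. Per the submitters' processing notes, HISAT2 2.0.5 and featureCounts 1.5 were used with mm10; the treatment of strand and of reads with several matches is given nowhere in the sources used here. All rows carried a gene name. Samples were grouped by the labelled sex. The main test was edgeR 4.0.16 (R 4.3.3) on all genes: filterByExpr by group, TMM scaling, glmQLFit and glmQLFTest, two-sided, Benjamini-Hochberg adjustment over 14814 genes, called under 0.05. CPM is over the effective library size and RPKM adds the deposited gene length. SE is the absolute log2 fold change over the square root of F. Between libraries of the same sex the chi-square over its degrees of freedom was 7.42 to 16, above sampling noise, and no library was treated as a duplicate. The fit was tested on simulated counts.

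Stem-loops, poly(A) signals and windows of 50 bases were read from GENCODE M21 transcripts, where all 82 genes had identical coordinates, and promoters from RefSeq (GRCm38.p6). Named histone genes are those with a mean of at least 5 CPM and variants with any count, plus up to 4 genes a list with the smallest adjusted p. Slbp, Npat, Hira, Daxx and the histone genes below 5 CPM were added after their values were seen. Alternatives were DESeq2 1.42.0, limma-voom 3.58.1, other scalings, no low-count filter, protein-coding genes only, offsets from a loess of log2 ratio on log2 gene length, a replicate block and leaving out each library. Members and lists were chosen with earlier results of these data known. Sums and shares are descriptions without a test.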

Additional observations from a re-analysis of the deposited data

Results flagged for a closer look

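Counts also fell on genes that match the histone names but are not protein-coding and entered no comparison above. Over the 6 libraries these were above 3 counts a library for 4 of them. H3f3a-ps1, a processed pseudogene on the X chromosome, had 452 counts, 274 in female and 178 in male libraries, with a log2 fold change of 0.73 ± 0.26 (SE, adjusted p = 0.0241 by edgeR). H3f3c, listed as a processed pseudogene, had 257 counts, 139 in female and 118 in male libraries, and was not called. H3f3aos, antisense to H3f3a, had 189 counts, 119 in female and 70 in male libraries, and was not called. H3f3a-ps2, another pseudogene, had 53 counts, 31 in female and 22 in male libraries. Whether any of these reads came from H3f3a or H3f3b was not tested.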

How the results depend on the processing

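The 6 lower variants, H3f3b and Hist2h2be kept their direction and call under all 14 alternatives, with log2 fold changes from −1.90 to −1.36 for H1fx, −1.60 to −1.23 for H2afy2, −1.27 to −0.85 for H2afj, −1.02 to −0.58 for H2afv, −0.83 to −0.36 for H2afx, −0.69 to −0.40 for H2afy, 0.54 to 0.80 for H3f3b and 0.71 to 1.03 for Hist2h2be. Replication-dependent genes called higher in female cells numbered 1, and 3 with DESeq2 or with no low-count filter, which test more genes (23 and 45), and 2 with the length offsets. Those called lower numbered 0, and 1 with total counts (Hist1h1c, −0.24, adjusted p = 0.0444 by edgeR). Leaving out libraries gave 1 to 1 higher and 0 to 1 lower: without female replicate 1 Hist1h2be was called at −2.81 (adjusted p = 0.0236), and without female replicate 2 Hist1h1c at −0.23 (adjusted p = 0.0446). Variants called higher numbered 2, with 1 under total counts, 3 under the length offsets (H2afz added) and 1 to 2 with libraries left out. Those lower numbered 6, with 6 to 6 when libraries were left out, 7 under upper quartile scaling (H1f0 added) and 8 under total counts (H1f0 and H2afz added). The summed replication-dependent CPM, at a log2 ratio of −0.03, moved to 0.31 with the length offsets, −0.11 under upper quartile scaling, −0.15 under total counts and −0.11 to 0.052 with libraries left out. The summed variant CPM, at 0.06, moved to 0.22, −0.013 and −0.053, and 0.02 to 0.10. The replication-dependent share difference of −0.49 percentage points ranged from −1.11 to −0.10. H2afz and Hist1h2bc reversed with the length offsets (0.21 and 0.32). Without a call there, the sign also changed under some alternative for H1f0 (up to 0.13), Hist1h1c (0.22), Hist1h4i (0.10) and Hist3h2a (down to −0.01). The cause of these moves was not tested. Total counts and upper quartile scaling shifted the median of all genes to −0.13 and −0.09, and total counts left 42.8% of calls higher in female cells against 50.9%. Over libraries left out, 8236 to 8841 genes were called in all. Same-numbered libraries did not deviate together (correlations −0.016, −0.104 and −0.153 over 10812 genes). Unlike-numbered libraries reached 0.172 (female replicate 3 and male replicate 2). A weak shared batch could not be seen this way, so whether the numbers pair libraries is not known. With the replicate block 8525 genes were called and the histone counts stayed at 1 higher and 0 lower replication-dependent and 2 higher and 6 lower variant genes. No fold change is given for the 59 replication-dependent genes whose counts were too low to be tested.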
